A study of Rattus norvegicus with 24 samples.

Results

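S100 proteins are small EF-hand proteins that change shape when they bind calcium, and annexins are proteins that bind acidic phospholipids of membranes in a calcium-dependent way. The families meet in complexes, the best known being that of S100a10 with Anxa2 at the plasma membrane. In the retina S100b is known as a protein of astrocytes and Mueller glia, and S100a8 with S100a9 forms calprotectin, an abundant protein of neutrophils. The 10 genes described here were S100a4, S100a6, S100a8, S100a9, S100a10, S100b, Anxa1, Anxa2, Anxa3 and Anxa5. They were chosen by the 3 month STZ minus control difference of these arrays, in which S100a4 had one of the largest values, so the 3 month values of the set are a description and carry no test. A RefSeq accession tied 8 of the 33849 rat probes of the array to 7 of the 10 genes. S100a6, S100a8 and Anxa3 had no matched probe and were not analysed here. Of the 8 probes, 7 probes for 6 genes passed the filter on dim probes, and the probe of Anxa2 did not.

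The samples were retinas of male Sprague Dawley rats killed 1 or 3 months (1M and 3M) after an intraperitoneal injection. STZ rats had received streptozotocin, a toxin of the insulin-producing beta cells, and were given no insulin, and control rats had received the vehicle alone. Each of the 4 groups (1M Control, 1M STZ, 3M Control and 3M STZ) held 6 arrays, described by the submitters as biological replicates. The study's own account of its animals gives fewer 1M Control rats than there are arrays with that label, without naming them, so all arrays were used and that group's arrays may not all be separate rats. Ages were given only as matched between STZ and control rats. As a model, untreated STZ diabetes combines hyperglycemia with weight loss, which these arrays do not separate, and the whole retina was used, so that more cells of a type and more RNA per cell cannot be told apart. The labelled tissue was borne out by rod markers, since the probes of all 6 rod genes measured, among them recoverin (Rcvrn) and phosducin (Pdc), were above bacterial background on all 24 arrays.

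A level below is the log2 of a probe's background-subtracted intensity after division by the median over rat probes on the same array, so 0 is the brightness of the median probe. Bacterial background is the 95th percentile of the 62 probes for bacterial genes on the same array. Errors are SD over 6 arrays for levels and SE of the linear model for differences. A probe was called when limma gave a Benjamini-Hochberg adjusted p under 0.05, taken over 22025 tested probes, with at least a 1.2-fold difference. Levels were compared between groups for 1 probe at a time, and between probes only to name or choose the brighter probe of a gene. The arrays of the time points differed as sets. The interquartile range of log2 levels was 3.36 to 3.67 on the 1M arrays, 1.48 to 2.23 on 3M Control arrays and 2.07 to 2.70 on 3M STZ arrays. Time point and array run cannot be told apart, and at 3 months the 2 groups also differed in the array spread.

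RefSeq promoters of the GRCr8 build were at hand for 8 of the 10 genes, and the 250 bases before the transcription start were searched on both strands. The pair printed here are S100a4, the gene by which the set was chosen, and S100a9, from the same S100 cluster of chromosome 2 but with a 3 month difference of the opposite sign. S100a4 lies at chr2:178388279-178388528 on the plus strand and S100a9 at chr2:178490623-178490872 on the minus strand, both written 5′ to 3′ with the TATA motif in capitals.

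S100a4: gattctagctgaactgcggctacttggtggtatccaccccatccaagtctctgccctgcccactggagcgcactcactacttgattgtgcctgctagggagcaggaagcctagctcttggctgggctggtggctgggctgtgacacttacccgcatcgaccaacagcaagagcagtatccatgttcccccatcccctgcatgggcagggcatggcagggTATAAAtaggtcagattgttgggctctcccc

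S100a9: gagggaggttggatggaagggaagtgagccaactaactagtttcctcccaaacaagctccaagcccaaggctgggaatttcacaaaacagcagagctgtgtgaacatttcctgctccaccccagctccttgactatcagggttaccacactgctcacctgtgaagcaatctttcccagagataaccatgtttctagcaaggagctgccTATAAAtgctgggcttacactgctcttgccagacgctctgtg

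The TATAAA motif began 31 bases before the start in S100a4 and 42 bases before it in S100a9. It was also found in Anxa1 and Anxa2, making 4 of the 8 windows, against 12.9% of all 33469 promoters of the same length. The GC box GGGCGG was in the windows of S100a6, Anxa2, Anxa3 and Anxa5, against 30.5% of all promoters. CCAAT was found only in S100b, with 3 matches, against 34.0%. The AP-1 motif TGANTCA was in Anxa2 alone, against 6.34%. The STAT motif TTCNNNGAA (7.67% of all promoters) and the NF-kappaB motif (6.33%) had no match in the 8 windows. These matches are letters in a window and describe no binding.

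At 1 month no S100 or annexin probe differed between STZ and control retinas past the threshold. This comparison took no part in the choice of the set. Of the 7 tested probes, 0 were called, against 0.00908% of all tested probes, 1 had an unadjusted limma p under 0.05, and the limma adjusted p was 1.00 for each. Their median difference was -0.15 on the log2 scale, against 0.01 over all tested probes. At 3 months 6 of the 7 tested probes were higher in STZ retinas and 1 was lower. The median difference was then 1.02, against 0.44 over all tested probes, and after quantile normalization, which gives all arrays the same distribution, it was 0.89 against 0.16. Of the 7 probes 4 were called higher at 3 months, namely those for S100a4 and S100b and both probes for Anxa5, where 50.5% of all tested probes were called higher. None of the 7 was called lower, where 3.55% of all probes were. After quantile normalization 5 of the 7 were called higher, against 24.6% of all. Higher probes made up 93.4% of all calls after median scaling and 78.1% after quantile normalization. Because the 3 month contrast chose the set, these counts are given without a reading.

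**Figure D1:**
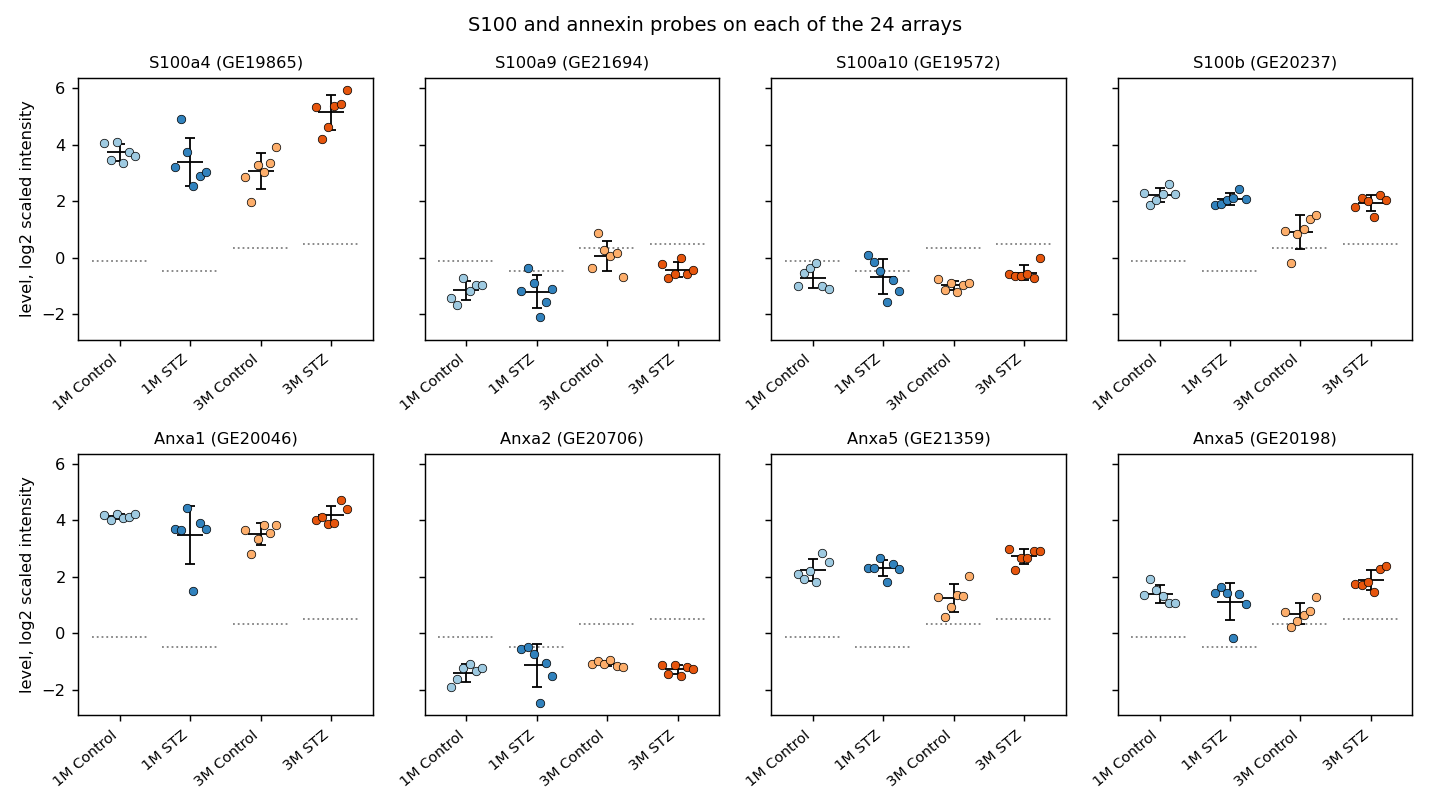
Level (log2 scaled intensity, 0 being the median rat probe of an array) of each S100 and annexin probe on each of the 24 arrays. Points are arrays, black bars the mean ± SD of 6 arrays, and dotted grey lines the group's median of the bacterial background. The 6 3M STZ arrays lie above the 6 3M Control arrays for S100a4, Anxa1, S100a10 and both Anxa5 probes, and the probes for S100a9, S100a10 and Anxa2 lie mostly below the bacterial background.

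S100a4, also called metastasin or fibroblast-specific protein, binds nonmuscle myosin and is made by fibroblasts, macrophages and some glia. On 1M Control arrays its level had a lowest value of 3.36, a median of 3.67 and a highest value of 4.1. On 1M STZ arrays these were 2.52, 3.13 and 4.89. The 1M groups overlapped, with STZ array 2 above every control and 4 STZ arrays below every control. The 1 month difference was -0.34 ± 0.32, with a 95% interval from -1.0 to 0.33 (limma adjusted p = 1.00). It was -0.64 without STZ array 2 and -0.16 without STZ array 4, so the sign held and the size turned on single arrays.

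On 3M Control arrays S100a4 ran from 1.98 through a median of 3.15 to 3.90, and on 3M STZ arrays from 4.19 through 5.34 to 5.92. Every 3M STZ array was thus above every 3M Control array. The group means were 3.07 ± 0.64 and 5.14 ± 0.63 (SD, n = 6 each), a difference of 2.08 ± 0.32 or 4.22-fold, which ranked 31st of 22025 probes from the most positive. Processing changed the size and not the sign. The difference was 1.40 after quantile normalization, 1.43 when quantiles were matched within each time point, and 1.54 with array spread as a covariate. Ordered by mean level, the groups ran 3M STZ, 1M Control, 1M STZ and 3M Control. Within this order 3M STZ and 1M Control did not overlap while the ranges of the other neighbours did. No change with time is read from the order, since time point and array run cannot be told apart.

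S100a3 is the gene before S100a4 on chromosome 2 and encodes a related protein known from hair follicles, and its values were no part of the choice. At 1 month its probe ran from -0.63 to -0.05 on controls and from -0.48 to -0.08 on STZ arrays, with no difference past the threshold (0.03 ± 0.16, limma adjusted p = 1.00). At 3 months it ran from -1.69 to -0.66 on controls and from -0.71 to 0.05 on STZ arrays, and 5 of the 6 STZ arrays were above every control. The difference was 0.80 ± 0.16 (limma adjusted p = 0.000668) and 1.61 after quantile normalization. None of the 12 arrays of 3 months was above bacterial background, so both groups lie among values that bacterial probes also reach, and no rise can be read from them. The gene after S100a4, S100a5, had no matched probe.

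S100b is a glial S100 protein that binds tubulin, Gfap and p53 inside cells and the receptor Ager outside them. At 1 month the control arrays had a lowest, median and highest level of 1.87, 2.26 and 2.62, and the STZ arrays of 1.87, 2.06 and 2.42. These ranges overlapped almost entirely, and the difference of -0.15 ± 0.20 had a 95% interval from -0.57 to 0.26 (limma adjusted p = 1.00). On 3M Control arrays the values were -0.18, 0.97 and 1.50, and on 3M STZ arrays 1.45, 2.03 and 2.20. Among 3M STZ arrays 5 of 6 were above every 3M Control array, and the difference was 1.02 ± 0.20, or 2.03-fold. It was 0.69 after quantile normalization and 0.60 with array spread as a covariate. The 3M STZ mean of 1.93 ± 0.27 was below both 1 month means of 2.22 ± 0.25 and 2.07 ± 0.20. The 3M Control group, at 0.91 ± 0.60, was the lowest of the 4. Because time point and array run cannot be told apart, no change with time is read from this order.

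Anxa5 binds phosphatidylserine, the lipid that dying cells expose, and was the one gene of the set with 2 probes. The brighter probe (GE21359) had a lowest, median and highest level of 1.82, 2.16 and 2.85 on 1M Control arrays and of 1.80, 2.31 and 2.65 on 1M STZ arrays. The other probe (GE20198) had 1.07, 1.34 and 1.93 on controls and -0.17, 1.39 and 1.65 on STZ arrays. Neither differed past the threshold at 1 month, and the probes had opposite signs, 0.07 ± 0.20 with a 95% interval from -0.35 to 0.48 and -0.26 ± 0.24 with an interval from -0.75 to 0.23 (limma adjusted p = 1.00 for both). The second value was -0.01 without 1M STZ array 4.

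At 3 months GE21359 ran from 0.59 through 1.30 to 2.03 on controls and from 2.25 through 2.79 to 2.97 on STZ arrays. GE20198 ran from 0.21 through 0.70 to 1.30 and from 1.46 through 1.77 to 2.37. On either probe all 6 STZ arrays were above all 6 controls. The differences were 1.48 ± 0.20 and 1.2 ± 0.24, or 2.79-fold and 2.30-fold. They were 1.04 and 0.89 after quantile normalization, while with array spread as a covariate they parted, at 1.18 and 0.44. After the group means were removed, the 2 probes had a Pearson correlation of 0.45 over the 24 arrays. It was 0.34 without 1M STZ array 4, and 0.20 without that array and 3M Control array 6, the 2 farthest.

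Anxa1 is an anti-inflammatory annexin, induced by glucocorticoids, that acts through formyl peptide receptors. On 1M Control arrays it was tightly held, with a lowest, median and highest level of 4.01, 4.15 and 4.22. On 1M STZ arrays these were 1.49, 3.69 and 4.45, and 5 of the 6 STZ arrays were below every control. The 1 month difference was -0.66 ± 0.30 with a 95% interval from -1.27 to -0.06, and it did not pass adjustment (limma adjusted p = 1.00). One array carried much of it, since without 1M STZ array 4, the lowest, it was -0.27.

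On 3M Control arrays Anxa1 ran from 2.81 through 3.60 to 3.85 and on 3M STZ arrays from 3.87 through 4.05 to 4.72. All 6 3M STZ arrays were above the controls, though the nearest values lay 3.85 to 3.87. The difference of 0.66 ± 0.30 was not called, and it was 0.01 after quantile normalization of all arrays and also within each time point. The Anxa1 value therefore rested on how the arrays were scaled.

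S100a10, the light chain of the complex with Anxa2 and a carrier of membrane channels, was dim. At 1 month it ran from -1.11 through -0.77 to -0.20 on controls and from -1.56 through -0.62 to 0.10 on STZ arrays. The difference was 0.03 ± 0.22 with a 95% interval from -0.42 to 0.48 (limma adjusted p = 1.00). At 3 months it ran from -1.20 through -0.93 to -0.77 on controls and from -0.71 through -0.61 to -0.01 on STZ arrays, with no overlap. The 3 month difference was 0.45 ± 0.22, not called, and 1.10 after quantile normalization, where it was called. Only 1 of the 24 arrays, a 1M STZ array, was above bacterial background, so these differences lie among values that bacterial probes also reach.

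S100a9, the neutrophil protein, was the tested probe that was lower at 3 months. At 1 month it ran from -1.68 through -1.08 to -0.73 on controls and from -2.09 through -1.13 to -0.37 on STZ arrays, a difference of -0.04 ± 0.24 with a 95% interval from -0.53 to 0.46 (limma adjusted p = 1.00). At 3 months it ran from -0.67 through 0.11 to 0.86 on controls and from -0.73 through -0.50 to -0.02 on STZ arrays. These ranges overlapped, and the difference was -0.49 ± 0.24, not called. Only 2 of the 6 3M Control arrays were above bacterial background. No 1M array and no 3M STZ array had this probe above bacterial background.

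Anxa2, the heavy partner of S100a10 and a cell-surface site of plasmin formation, was below the filter and below bacterial background on all 24 arrays. Its values ran from -1.91 to -1.09 on 1M Control, from -2.48 to -0.47 on 1M STZ, from -1.19 to -0.95 on 3M Control and from -1.50 to -1.12 on 3M STZ arrays. In a fit of all rat probes without the filter the difference was 0.27 ± 0.23 at 1 month and -0.20 ± 0.23 at 3 months. Neither direction can be read from values at that brightness.

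**Figure D2:**
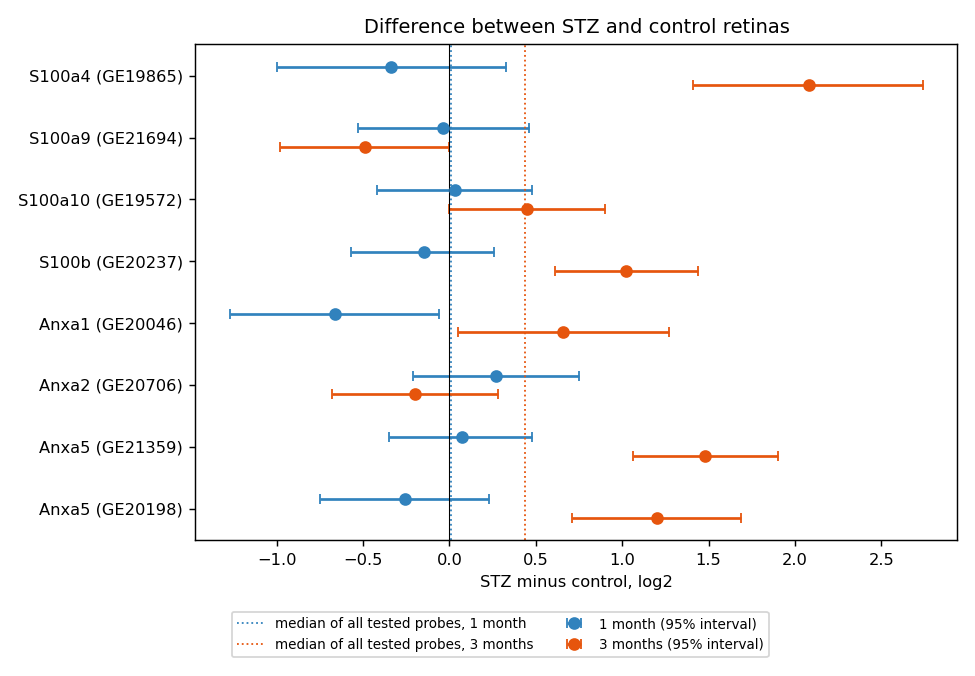
STZ minus control difference (log2, horizontal axis) of each S100 and annexin probe at 1 month (blue) and 3 months (orange), with 95% intervals of the limma model, and the median of all tested probes as dotted lines (0.01 and 0.44). At 3 months S100a4 is farthest to the right at 2.08, then the Anxa5 probes at 1.48 and 1.2 and S100b at 1.02. The Anxa2 values come from the fit without the filter on dim probes.

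The 3 month difference minus the 1 month difference was called for 5 of the 7 tested probes, against 15.5% of all tested probes. Over all tested probes this contrast called 3414, and from 759 to 9230 when single arrays were left out. It called 10325 with array weights and 0 with the spread covariate. The 3 month term of this contrast also chose the set, so the values are again descriptive. They were 2.41 ± 0.46 for S100a4, 1.17 ± 0.29 for S100b, 1.32 ± 0.42 for Anxa1, and 1.41 ± 0.29 and 1.47 ± 0.34 for Anxa5. S100a10 (0.42 ± 0.31) and S100a9 (-0.45 ± 0.34) were not called. After quantile normalization S100b (0.85) and Anxa1 (0.69) were not called and S100a10 (1.07) was. For Anxa1 the STZ group was on average lower at 1 month and higher at 3 months. Over all tested probes, 9.49% had every 3M STZ array above every 3M Control array, and 5 of the 7 tested probes of the set did.

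**Figure D3:**
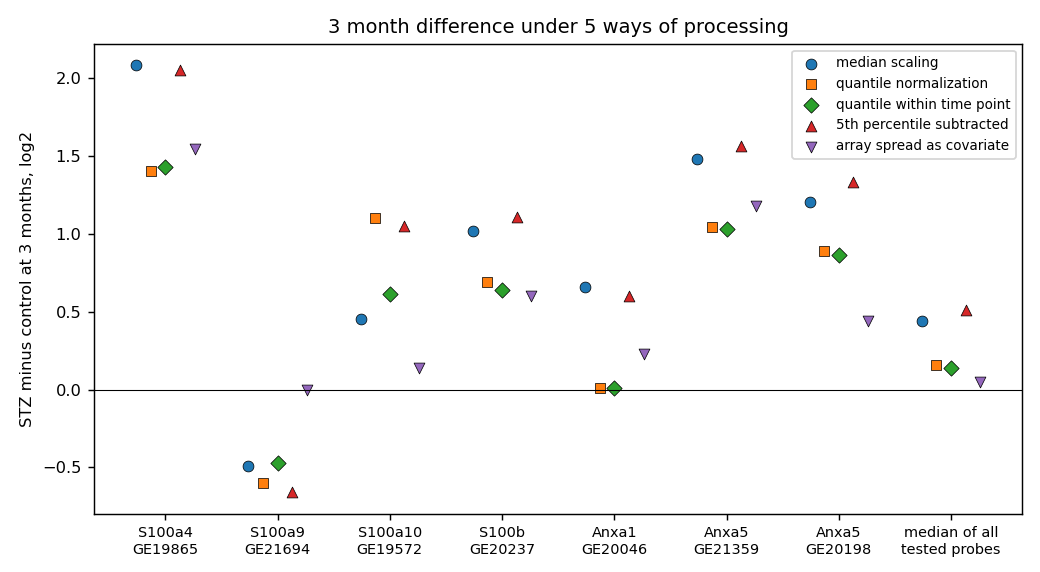
STZ minus control difference at 3 months (log2, vertical axis) for the 7 tested S100 and annexin probes and for the median of all tested probes, under 5 ways of processing. S100a4, S100b and both Anxa5 probes stay above 0 in each, from 1.40 to 2.08 for S100a4, while Anxa1 goes from 0.66 to 0.01 and S100a10 from 0.45 to 1.10 with quantile normalization.

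Array properties that moved with the 3 month groups were measured beside these values. The median intensity before scaling was 149 to 308 on 3M Control arrays and 125 to 164 on 3M STZ arrays. With array spread as a covariate, 0 of all 22025 probes were called at 3 months (1934 at an unadjusted limma p under 0.05), where 11911 were called without it. Control array 2 of 3 months had the lowest S100a4, S100b, Anxa1 and Anxa5 values of its group. Without it 8734 probes were called, and S100a4 stayed within 1.86 to 2.27 whichever array was left out. The part of spread and brightness in the differences of the set was not tested beyond these covariates.

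Markers of other cells also moved. Of 19 lens genes listed, 9 had a probe and 7 were tested, and 6 of these rose at 3 months, with a median of 1.59 (3 and 0.64 after quantile normalization). Cryba2, a beta crystallin, had a difference of 1.04 ± 0.32 (limma adjusted p = 0.0108), which was 0.09 and not called after quantile normalization. Crybb1 (1.59, then 0.64) and Crybb3 (1.47, then 0.45) also lost the call. Crygd (4.39, then 4.11), Lenep (2.72, then 2.29) and Lgsn (2.20, then 1.80) kept it. For Crygd and Lgsn 5 of the 6 3M STZ arrays were above every control, and 1 was below every control for Lgsn. The summed level of the lens probes, in units of the array median, was 142 to 375 on 1M Control, 38.7 to 368 on 1M STZ, 101 to 232 on 3M Control and 292 to 640 on 3M STZ arrays. The 3 month groups did not overlap in this sum, which is on the median-scaled values and was not recomputed after quantile normalization. Gja3, a connexin of lens fibers, was below bacterial background on all 24 arrays.

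Several S100 and annexin levels followed the lens sum array by array within groups. The 1M STZ array 2 had the highest lens sum of its group (368) and its highest S100a4 (4.89). The 1M STZ array 4 had the lowest lens sum of all arrays (38.7) and its group's lowest S100a4 (2.52), Anxa1 (1.49) and both Anxa5 values (1.80 and -0.17). At 3 months, control array 2 was lowest in the lens sum (101) and in S100a4 (1.98), and STZ array 6 highest in both (640 and 5.92). As a description over 24 arrays with group means removed, the Pearson correlation with the log2 lens sum was 0.73 for S100a4, 0.76 for Anxa1, 0.72 and 0.65 for the Anxa5 probes and 0.29 for S100b. Spearman's rho was 0.70, 0.60, 0.80, 0.39 and 0.32 in that order. Without 1M STZ arrays 2 and 4, the farthest in lens sum, r was 0.65, 0.55, 0.85, 0.26 and 0.56. The array's scaling enters both measures, and the part of lens RNA in the differences was not tested.

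**Figure D4:**
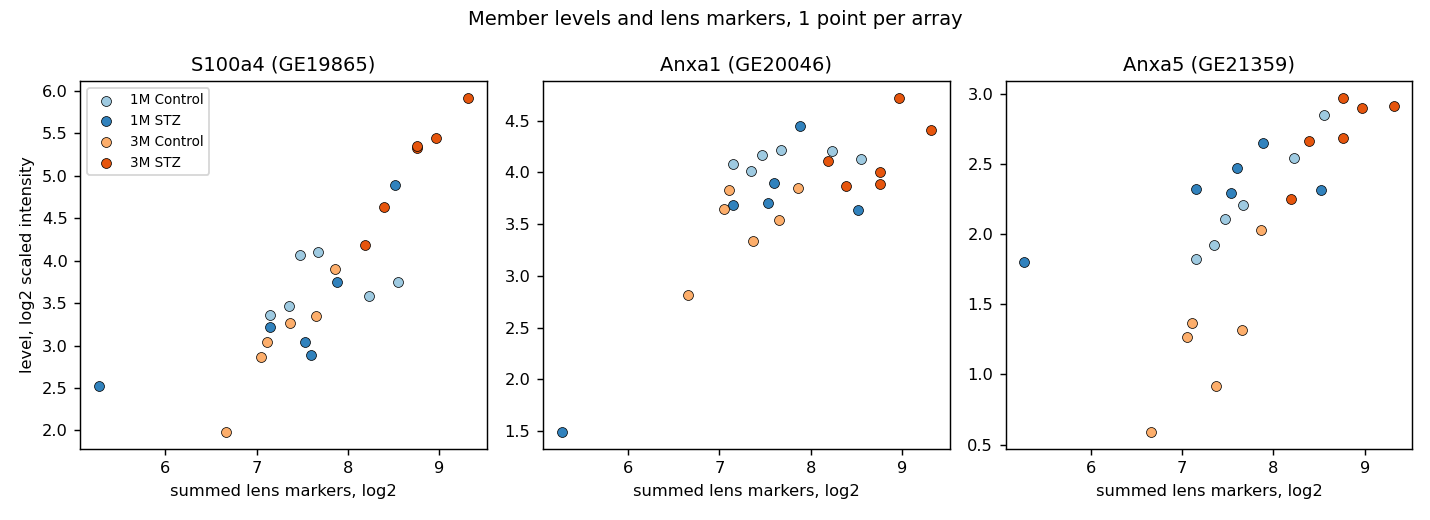
Level of S100a4, Anxa1 and Anxa5 (probe GE21359) on the vertical axes (log2 scaled intensity) against the log2 of the summed lens markers, 1 point per array, colored by group. The 3M STZ arrays lie from 8.19 to 9.32 and the 3M Control arrays from 6.66 to 7.86 on the horizontal axis, and the 1M STZ array 4 lies alone at 5.27.

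Among immune markers, neutrophil genes had 7 of 15 with a probe and 3 tested, and 1 rose at 3 months. That was Lcn2, a neutrophil and glial lipocalin, at 1.46 ± 0.20 (limma adjusted p = 3.96e-05). Neutrophil sums were 5.07 to 7.76 on 3M Control and 9.04 to 46.4 on 3M STZ arrays, with medians of 5.81 and 9.94. The highest sum came from 1 array, on which the untested probe for Defa5, a defensin, reached 5.32 on the log2 scale, the only array of 3 months where it was above bacterial background, and Cxcr2 was below bacterial background on all 24 arrays. Of the 5 tested microglia and macrophage genes (9 of 17 with a probe) 3 rose at 3 months, with sums of 7.69 to 12.9 and 11.6 to 15.9. These were Cd74 (1.36 ± 0.22, limma adjusted p = 0.000127), C1qb (1.25 ± 0.17, limma adjusted p = 3.18e-05) and Itgam (0.64 ± 0.19, limma adjusted p = 0.00733). Of the 12 arrays of 3 months, Cd74 was above bacterial background on 9, C1qb on 7 and Itgam on 3, while Cx3cr1 and Ptprc were below bacterial background throughout. The 4 T cell genes with a probe were all below the filter. Some untested probes were called at 3 months in the fit without the filter. Lower were the neutrophil gene Mmp8 (-0.86), the microglia and macrophage gene P2ry12 (-0.71) and the T cell gene Cd8a (-0.72). Higher was the microglia and macrophage gene Lyz2 (0.61). Of the 12 arrays of 3 months, Mmp8 was above bacterial background on 2, P2ry12 on 1, and Cd8a and Lyz2 on 0.

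Glial markers moved in part. Of 7 tested Mueller glia genes 4 rose at 3 months (median 0.73, after quantile normalization -0.06), with sums of 66.8 to 198 on controls and 190 to 252 on STZ arrays, and of 3 astrocyte genes 2 rose. Both endothelial genes rose, as did 1 of 5 pericyte, 1 of 1 fibroblast and 1 of 3 erythrocyte genes. In the other lists 0 of 2 retinal pigment epithelium, 2 of 2 surface epithelium, 3 of 6 rod and 2 of 4 ganglion cell genes rose. The tested fibroblast gene was Col1a2 (0.51). In the fit without the filter, Lum was at -1.13 (not called) and the Fn1 probes at -1.31 and -0.45 (both called lower). Lum was above bacterial background on 5 control and 0 STZ arrays of 3 months. The first Fn1 probe was above it on 4 and 0, the second on none. A second, dimmer tested probe of the surface epithelium gene Cdh1 was at -0.25, not called. With each gene given by its brightest tested probe and median scaling, no marker gene was called lower at 3 months or called at 1 month, but a second, dimmer probe of 1 retinal pigment epithelium gene was called lower at 3 months (-0.83 ± 0.26, limma adjusted p = 0.0111). Called higher after quantile normalization were 3 lens, 3 neutrophil, 3 microglia and macrophage, 2 astrocyte and 1 Mueller glia genes. So were 1 pericyte, 1 erythrocyte and 1 surface epithelium genes and 0 in the other marker lists, and 2 rod genes were called lower. Of these, Mmp9 and Np4 (neutrophil), Aldh1l1 (astrocyte) and Slc4a1 (erythrocyte) were above bacterial background on 0 of the 12 arrays of 3 months. Epcam (surface epithelium) was above it on 1 of the 12. No rise can be read from values at that brightness. Slc4a1 and Epcam were also counted as risen after median scaling. With the scaled median of all tested probes at 0.44, the counts after median scaling stand against the 50.5% of probes called higher. The part of any cell type in the S100 and annexin differences was not tested.

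Other genes of the S100 and annexin pathways were taken as lists. Of 12 other S100 genes 2 had a probe and only S100a3, given above, was tested. The other, S100g, was below the filter. In the fit without the filter its 3 month difference was -0.80 ± 0.33, called lower (limma adjusted p = 0.0473). Of its 6 3M STZ arrays 5 were below every 3M Control array. It was above bacterial background on 5 3M Control arrays and 1 3M STZ array. Of 8 other annexins only Anxa7, a vesicle fusion annexin, had a probe, and it was below the filter. In the fit without the filter its 3 month difference was -0.84 ± 0.38, not called (limma adjusted p = 0.069). All 6 of its 3M STZ arrays were below all 3M Control arrays, and 1 of the 12 arrays was above bacterial background. Of 16 receptors 7 had a probe and 6 were tested, with a median 3 month difference of 0.43, or 0.15 after quantile normalization. Of these 2 rose and none fell, and 1 was called after quantile normalization, against 50.5% and 24.6% of all tested probes called higher and a median of 0.44 over all. Cd36, a scavenger receptor that also takes up S100a8 and S100a9 with fatty acids, ran from -0.83 to 0.71 on 3M Control and from 0.23 to 0.90 on 3M STZ arrays. It rose by 0.59 ± 0.20 (limma adjusted p = 0.0162), its dimmer, untested probe had 0.03 ± 0.32, and only 5 of the 12 arrays of 3 months were above bacterial background. The call was lost without 3M Control array 2 (0.41), with quantiles matched within time points (0.48), with the brightness covariate (0.40), with the spread covariate (0.15) and by the methods' test. Emb, a basigin relative, rose by 0.48 ± 0.17 (limma adjusted p = 0.0220), and was at 0.14 and not called after quantile normalization.

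The lowest receptor was Tlr2, a Toll-like receptor, at -0.14 ± 0.17 (limma adjusted p = 0.481), on values above bacterial background on none of the 12 arrays of 3 months. Ager, the receptor for advanced glycation end products that S100b and S100a9 bind, was singled out after its values were seen. It ran from -0.12 to 0.95 on 3M Control and from 0.60 to 1.11 on 3M STZ arrays, and its difference of 0.48 ± 0.21 with a 95% interval from 0.05 to 0.90 did not pass (limma adjusted p = 0.0522).

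Of 25 intracellular or surface binding partners 16 had a probe and 15 were tested, and 10 rose and 0 fell at 3 months, with a median of 0.46, against 50.5% of all tested probes called higher and a median of 0.44 over all. After quantile normalization 8 rose and 1 fell. Counted as risen both ways were Plg, Trpv6 and Htr4, although each was above bacterial background on 0 of the 12 arrays of 3 months. Myh9, counted only after quantile normalization, was likewise above it on 0 of the 12. For these genes no rise can be read. Gfap, the intermediate filament of glia and a target of S100b, was highest, from 0.18 to 1.65 on 3M Control and from 0.99 to 2.27 on 3M STZ arrays, a rise of 1.29 ± 0.27 (limma adjusted p = 0.000894). Plau, the urokinase plasminogen activator, was lowest at -0.45 ± 0.20 (limma adjusted p = 0.0608), and above bacterial background on 2 of 24 arrays. Plat, the tissue plasminogen activator that docks on the S100a10 and Anxa2 complex, was singled out after its values were seen. All 6 of its 3M STZ arrays (1.66 to 2.27) were above all 3M Control arrays (0.08 to 1.42), a rise of 1.14 ± 0.18 (limma adjusted p = 0.000127). None of the genes in the 4 lists was called at 1 month.

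**Figure D5:**
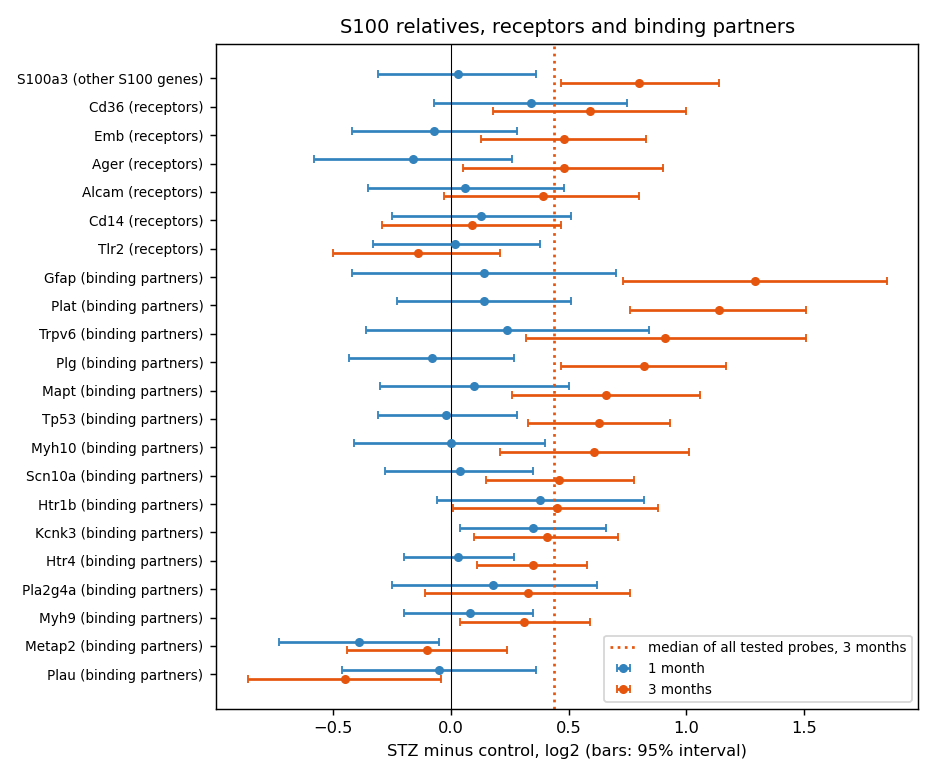
STZ minus control difference (log2, horizontal axis) at 1 month (blue) and 3 months (orange) with 95% intervals, for each tested gene among other S100 genes, receptors and binding partners. The dotted line is the 3 month median of all tested probes, 0.44. Gfap at 1.29 and Plat at 1.14 are farthest to the right, and Plau at -0.45 farthest to the left.

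The genes with levels most like S100a4 were ranked by Pearson correlation among 3141 probes with a symbol. Over the 24 arrays the closest were Lgals3 (galectin-3, 0.94), Cavin3 (a caveolar coat protein, 0.94), Calm3 (a calmodulin, 0.94), Fads3 (a fatty acid desaturase relative, 0.91) and Hopx (a homeodomain-only protein, 0.91). With group means removed they were Lgals3 (0.89), Lgals1 (galectin-1, 0.85), Prx (periaxin, 0.85), Cavin3 (0.84) and Trhr (a thyrotropin-releasing hormone receptor, 0.84). Lgals3 and Cavin3 were in both rankings. Without the 2 arrays farthest in S100a4 the first 5 had 0.92, 0.91, 0.92, 0.90 and 0.88, and the second 5 had 0.83, 0.78, 0.78, 0.84 and 0.76. Spearman's rho ran from 0.87 to 0.94 in the first ranking and from 0.76 to 0.88 in the second. All these probes share the scaling of their array, and the coefficients are a description without a p. The 3 month differences of the 8 genes were between 0.94 (Fads3) and 2.84 (Lgals3).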

How the data were processed

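Retinal RNA was read on 24 1-color CodeLink arrays, 6 per group, of 33911 probes, 62 of them bacterial. The authors computed each spot's intensity with the CodeLink software, left out spots outside the manufacturer's specification, subtracted local background and normalized within arrays. They deposited this intensity on a linear scale, plain and rescaled by 1 constant per array near its median. Values of the series-level table were equal to these (0 differed by more than 1e-06), and no arrays were identical (0 pairs).

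Here each background-subtracted value was divided by the median over rat probes on its array, floored at 0.01 and log2-transformed. A probe was tested if its median over arrays exceeded percentile 35 (0.554) with at least 4 values per group, which left 22025. One limma model (3.58.1, R 4.3.3) of 4 groups gave differences, and the fit was tested on simulated data. Symbols came from the GRCr8 RefSeq table, which held 4015 of 4798 RefSeq accessions. Array number and signal over background set the precision.

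The members and lists were chosen with earlier results of these data known. Named genes are all members, the highest and lowest of the lists of relatives, receptors and partners, neighbours of S100 genes, and the 5 probes most like S100a4 in each of 2 measures. Emb, Ager, Plat, Anxa7, S100g and the marker genes with values were named after their values were seen. A gene with several tested probes in a list is given by the brightest. Alternatives were quantile normalization over all arrays or within time points, the authors' normalized values, the series-level values, subtraction of the 5th percentile, other filters and floors, no fold limit, separate models, brightness or spread covariates, array weights, the replicate block, the methods' test (p under 0.01 and 1.2-fold, unadjusted) and each array left out. Single values of 2 marker genes are not reported here.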

Additional observations from a re-analysis of the deposited data

Results flagged for a closer look

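In 3 of the 32 sets of 6 arrays (8 probes by 4 groups) 1 value stood far from the rest by Dixon's criterion, which chance alone meets in about 1 set of 20. S100a10 was at -0.01 on 3M STZ array 6, Anxa1 at 1.49 on 1M STZ array 4 and Anxa5 (GE20198) at -0.17 on 1M STZ array 4.

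After median scaling the limma interaction of STZ with time point was called for S100a4 (2.41), S100b (1.17) and Anxa1 (1.32). It was also called for the Anxa5 probes GE21359 (1.41) and GE20198 (1.47). S100b and Anxa1 lost the call after quantile normalization over all arrays (0.85 and 0.69) and within time points (0.80 and 0.69). None was called with the spread covariate. The set was chosen on the 3 month contrast, so these differences are not independent of the choice.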

How the results depend on the processing

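No S100 or annexin probe was called at 1 month under any alternative, and leaving out each array in turn gave 0. At 3 months 4 probes were called, 0 with array spread as a covariate, and 4 to 6 when single arrays were left out. With single arrays left out, the higher counts came without 1M STZ array 3 or 4 (5 probes, adding Anxa1). They also came without 3M Control array 6 (6 probes, adding Anxa1 and S100a9). Separate models and array weights called 6. Either quantile normalization, the 5th percentile subtracted, the brightness covariate and the methods' test called 5. So did the filter for probes above the limit on all 24 arrays, with 5 probes tested. The difference between time points was called for 5 probes, and for 4 to 5 with single arrays left out. It was called for 4 after quantile normalization over all arrays, without S100b and Anxa1 and with S100a10. Quantile normalization within time points gave 3, again without S100b and Anxa1, and the spread covariate gave 0. Of the 22 tested relatives, receptors and partners 13 were called at 3 months, 5 with the brightness covariate, 0 with the spread covariate, 7 by the methods' test and 10 to 16 with single arrays left out.

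Signs turned for these differences. S100a9 at 1 month was 0.04 with the brightness covariate, 0.09 with array weights and -0.20 to 0.14 with arrays left out, and at 3 months 0.00 with the spread covariate. S100a10 at 1 month was -0.20 with array weights and -0.12 to 0.21 with arrays left out. Anxa5 (GE21359) at 1 month was -0.08 with the brightness covariate and -0.02 to 0.19 with arrays left out. Tlr2 and Plau at 3 months were 0.03 and 0.04 with the spread covariate. Plau passed the threshold without 1M STZ array 2 (-0.45), 3M Control array 4 (-0.53) or 6 (-0.60), or 3M STZ array 4 (-0.52). The cause was not tested.

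Groups share replicate numbers, but same-numbered arrays did not deviate together (correlations from -0.17 to 0.25 at 1 month and -0.24 to 0.22 at 3 months, own number best for 2 and 1 of 6). With the replicate block 4 probes were called at 3 months, 5 for the difference between time points and 13 of the relatives, receptors and partners, and all rat probes called numbered 11589 against 11911. Over all tested probes at 3 months, 6948 were called after quantile normalization, 5536 with quantiles matched within time points, 4058 with the brightness covariate and 3722 by the methods' test. At 1 month array weights called 360 and the methods' test 262. S100a9, S100a10 and Anxa2 are limited by signal over background.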
